A study of Mus musculus with 4 samples.

Results

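The immediate early response genes Fos, Fosb, Jun, Junb, Egr1, Dusp1, Ccn1, Atf3, Ier2 and Ier3 were followed across 4 Affymetrix 3′ expression arrays of mouse gut. These 10 genes, of 18193 genes on the array, were chosen by name as classical members of the early response, and the measured intensities and ratios of these same 4 arrays were known when they were chosen. Their levels and ratios are therefore a description, and none was tested. They are covered by 14 of 45037 probe sets, 4 of them for Ccn1, 2 for Jun and 1 for each of the others. Every gene was above the floor of 15.5, under which an intensity was treated as background, on at least 1 array of each pair compared. All mice were C57BL/6 and were kept in isolators. NK318.1-PP is Peyer's patch cells of germ-free (GF) mice that carried only Lactobacillus NK318.1 for 2 weeks, a strain that the study associates with mice carrying a human REG3γ transgene in the gut epithelium, and GF-PP is the same tissue of GF mice that were not colonized. NK318.1-IEC, which one label shortens to NK318-IEC, and GF-IEC are the intestinal epithelial cells of such mice. The labels give 100000000 bacteria for colonization and no age or sex of the GF mice. Each group is 1 array, so the spread between mice was not measured, no p-value exists, and every difference given is a ratio between 2 arrays. The study describes the RNA of both tissues as pooled and places the epithelial cells in the ileum. It compared colonized with GF mice to look for genes that respond to the strain.

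Immediate early genes are transcribed within minutes of a stimulus and without new protein synthesis, when kinases such as ERK, JNK and p38 modify transcription factors that already sit at their promoters, among them SRF with its ternary complex partners and CREB. Their mRNAs are short-lived, so the level at any moment depends on recent signalling. Fos and Jun proteins pair through leucine zippers to form AP-1, which switches on later genes, whereas products such as the phosphatase DUSP1 turn the kinases off again. In the intestine the group is known to respond to growth factors, cytokines, microbial products and mechanical or isolation stress.

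The stretches upstream of 5 members are shown because these genes carried the lowest or highest ratios of the set, with Fos added as the best known. They are RefSeq sequences of the GRCm38.p6 build, 200 bases that end just before the annotated start. Fos lies at chr12:85473690-85473889 on the plus strand. Fosb lies at chr7:19310046-19310245, Dusp1 at chr17:26508473-26508672, Ccn1 at chr3:145649986-145650185 and Atf3 at chr1:191183334-191183533, all on the minus strand. Each is written 5′ to 3′ along the gene, and capitals mark TGACG or its reverse complement CGTCA, the core of the cAMP response element (CRE) that CREB and ATF proteins bind.
Fos: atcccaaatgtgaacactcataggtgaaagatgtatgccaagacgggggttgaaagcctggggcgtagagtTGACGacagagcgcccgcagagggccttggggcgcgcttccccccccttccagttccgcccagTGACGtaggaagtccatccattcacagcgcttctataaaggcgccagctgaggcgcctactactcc
Fosb: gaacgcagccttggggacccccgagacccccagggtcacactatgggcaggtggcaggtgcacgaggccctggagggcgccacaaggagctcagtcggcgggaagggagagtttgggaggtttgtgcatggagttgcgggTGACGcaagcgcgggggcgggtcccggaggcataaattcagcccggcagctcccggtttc
Dusp1: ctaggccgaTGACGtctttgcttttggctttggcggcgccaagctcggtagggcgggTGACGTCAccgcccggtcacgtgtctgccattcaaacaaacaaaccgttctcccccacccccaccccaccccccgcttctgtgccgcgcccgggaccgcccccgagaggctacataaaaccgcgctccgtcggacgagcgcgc
Ccn1: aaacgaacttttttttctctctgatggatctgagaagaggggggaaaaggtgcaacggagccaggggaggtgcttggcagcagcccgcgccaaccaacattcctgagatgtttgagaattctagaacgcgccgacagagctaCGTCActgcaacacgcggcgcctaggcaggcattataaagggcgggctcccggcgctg
Atf3: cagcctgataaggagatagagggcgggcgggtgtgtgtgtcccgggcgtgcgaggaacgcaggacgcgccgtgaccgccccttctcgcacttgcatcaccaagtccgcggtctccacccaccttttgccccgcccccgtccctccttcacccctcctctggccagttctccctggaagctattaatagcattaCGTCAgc

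Of the 10 members, 8 had a promoter in the RefSeq table used, and Egr1 and Ier2 were not analysed here in this respect. In the 250 bases before the start, searched on both strands, TGACG was found in 6 of the 8 (Fos, Fosb, Junb, Dusp1, Ccn1 and Atf3) and in 17.8% of 32851 promoter windows of the same length. The full element TGACGTCA, which holds the core on each strand, was found for Dusp1 alone and in 1.55% of all windows. The first base of a core lay 66 and 129 bases before the start in Fos, 60 in Fosb, 58 in Ccn1, 106 in Junb and 7 in Atf3, with 191, 143 and 140 in Dusp1. The AP-1 site TGANTCA and the CArG box of SRF were found in 0 of the 8, against 6.75% and 1.47% of all windows. Elements farther upstream lie outside these windows, and a match shows only that the letters are there.

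Median intensity lay between 23.0 and 23.3 on the 4 arrays. Enterocyte markers such as Fabp1 summed to 30798 and 41724 in NK318.1-IEC and GF-IEC and to 211 and 226 in NK318.1-PP and GF-PP, while leukocyte markers such as Ptprc summed to 760 and 4973 in the epithelial arrays and to 31346 and 30249 in the Peyer's patch, each list being higher in its own tissue. Within epithelial cells, stomach and pancreas markers summed to 39095 in NK318.1-IEC against 1400 in GF-IEC, and all 10 of them were at least 2-fold higher. For β-actin, the 3′ probes were brighter than the 5′ probes, a gap that widens in degraded RNA, by a factor of 4.10 in NK318.1-IEC, 2.73 in GF-IEC, 1.74 in NK318.1-PP and 1.60 in GF-PP. The female transcript Xist had 4586 in NK318.1-PP and 4889 in NK318.1-IEC, against 21.7 in GF-PP and 46.7 in GF-IEC, and the Y-linked Eif2s3y ran the other way. Colonization and this sex difference therefore cannot be told apart in either tissue.

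The clearest contrast was between tissues. All 10 members were higher in epithelial cells than in the Peyer's patch, in colonized and in GF mice alike. In colonized mice 10 of 10 were at least 2-fold higher in NK318.1-IEC than in NK318.1-PP, with a median log2 ratio of 1.94. Of all measured genes, 18.4% were at least 2-fold higher in that comparison and 16.8% at least 2-fold lower. In GF mice 7 of 10 were at least 2-fold higher in GF-IEC than in GF-PP, with a median of 2.76, beside 16.0% of all measured genes higher and 18.5% lower. Junb, Dusp1 and Ier3 were below 2-fold in the GF comparison, although Junb (1.07) and Ier3 (1.08) passed it after quantile normalization, and Ccn1 fell short of it (0.90) by one of its 4 probe sets. Both tissue comparisons cross 2 very different cell mixtures, and in bulk RNA a difference in the number of cells of a type and in RNA per cell cannot be told apart. The 3′ to 5′ ratio of β-actin was also higher in NK318.1-IEC (4.10) and GF-IEC (2.73) than in NK318.1-PP (1.74) and GF-PP (1.60). The part of RNA quality and of cell isolation in the tissue ratios was not tested. A wider list of early genes held both directions. Of 44 of these measured, 14 were at least 2-fold higher and 10 lower in NK318.1-IEC against NK318.1-PP, and 15 were higher and 7 lower in GF-IEC against GF-PP.

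**Figure D1:**
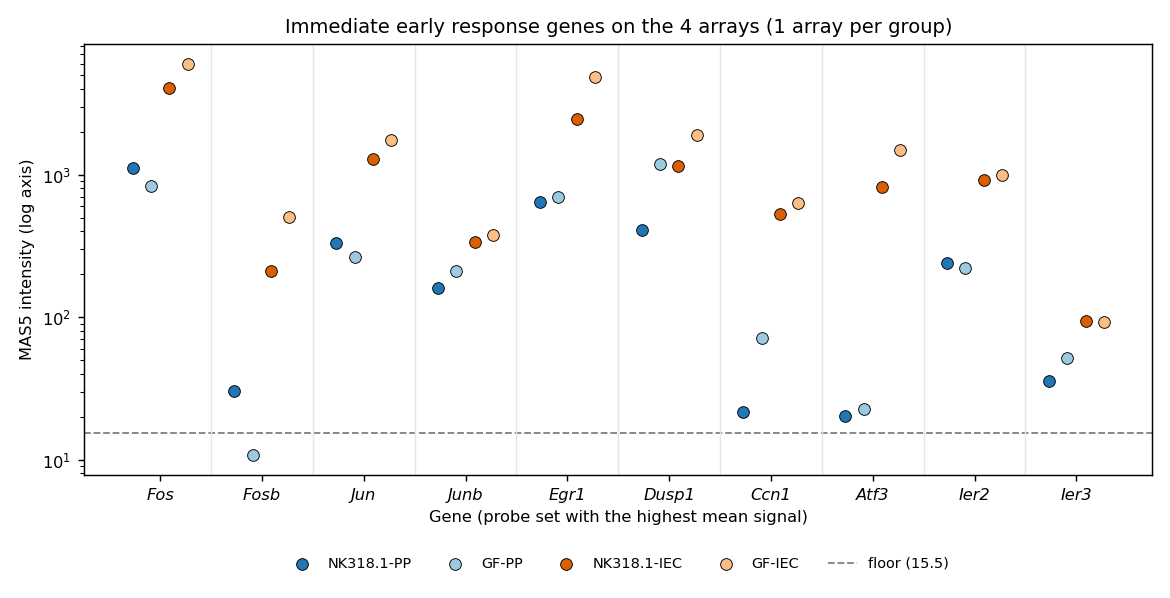
MAS5 intensity (log axis) of the 10 members on the 4 arrays, 1 point per array, each gene by its brightest probe set. The dashed line is the floor of 15.5, under which a signal was treated as background. The epithelial points lie above both Peyer's patch points for every gene except Dusp1, whose NK318.1-IEC value of 1140 lies just under its GF-PP value of 1190.

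Fos and Fosb encode the partners that give AP-1 its transient part. Fos had an intensity of 4078 in NK318.1-IEC and 6012 in GF-IEC, and 1107 in NK318.1-PP and 835 in GF-PP. Colonized epithelial cells were thus below GF cells (log2 ratio −0.56) and colonized Peyer's patch above GF Peyer's patch (0.41). Fosb, a close relative of Fos with a shorter splice form known from brain, had 211 in NK318.1-IEC against 502 in GF-IEC, a log2 ratio of −1.25 and the lowest of the members in this tissue. In the Peyer's patch Fosb had 30.2 in NK318.1-PP and 10.7 in GF-PP. The GF value was under the floor, so the colonized array was at least 1.95-fold higher, close to background. Fosb was the only member under the floor on any array. Its signal in epithelial cells was 6.98-fold that of the Peyer's patch in colonized mice and at least 32.4-fold in GF mice.

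Jun and Junb encode the partners of Fos proteins, with JUNB often a weaker activator that can restrain JUN. Jun had 1293 in NK318.1-IEC and 1763 in GF-IEC (log2 ratio −0.45), and 329 in NK318.1-PP and 265 in GF-PP (0.31). Its other probe set gave −0.70 and 0.11 for the same comparisons, on the same side of 0 in each tissue. For Junb the values were 335 in NK318.1-IEC and 379 in GF-IEC (−0.18), and 160 in NK318.1-PP and 210 in GF-PP (−0.39). Junb had the smallest tissue ratio of the members in colonized mice, 2.08-fold higher in NK318.1-IEC than in NK318.1-PP, and it was 1.81-fold higher in GF-IEC than in GF-PP. Fos, Fosb and Jun shared a pattern, in that each was lower in the colonized array of the epithelium and higher in the colonized array of the Peyer's patch. Ier2 had the same signs (−0.11 and 0.11), and so did genes outside the members, such as Fosl2 (−0.15 and 0.44). No test of this contrast between tissues is possible with 1 array a group. Of Fos, Fosb and Jun, only Fosb had ratios outside the central 95% of measured genes in both tissues.

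Egr1 and Atf3 encode transcription factors of other families. Egr1, a zinc finger protein induced through SRF, had 2445 in NK318.1-IEC against 4807 in GF-IEC, a log2 ratio of −0.98. For the Peyer's patch its values were 641 in NK318.1-PP and 698 in GF-PP, a ratio of −0.12. Egr1 was therefore near 2-fold lower in colonized epithelium and about level in the patch. Atf3, a CREB family repressor induced by stress, had 816 in NK318.1-IEC against 1487 in GF-IEC (−0.87). It had 20.2 in NK318.1-PP and 22.7 in GF-PP, little above the floor. Atf3 thus had the widest tissue ratio of the set, 40.4-fold in colonized and 65.5-fold in GF mice, and these folds rest on Peyer's patch values close to background.

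Ier2 and Ier3 encode small early response proteins, IER2 a nuclear regulator and IER3 (also IEX-1) a modulator of survival and ERK signalling. Ier2 was nearly the same in colonized and GF arrays, with 920 in NK318.1-IEC and 994 in GF-IEC, and 239 in NK318.1-PP and 222 in GF-PP. Its log2 ratios were −0.11 in the epithelium and 0.11 in the Peyer's patch, both well inside the central 95% of measured genes. Ier3 had 93.7 in NK318.1-IEC and 91.8 in GF-IEC, a ratio of 0.03 that ran from −0.02 to 0.03 under other processing, so its sign is not settled. It had 35.9 in NK318.1-PP and 51.9 in GF-PP (−0.53).

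Dusp1 and Ccn1 were the 2 members at least 2-fold lower in the colonized Peyer's patch. Dusp1, the phosphatase that inactivates p38, JNK and ERK, had 408 in NK318.1-PP against 1190 in GF-PP, a log2 ratio of −1.55 or 2.92-fold lower. In epithelial cells it had 1140 in NK318.1-IEC against 1900 in GF-IEC (−0.74). Dusp1 was thus lower in the colonized array of both tissues. Its tissue ratio was 2.80-fold in colonized and 1.60-fold in GF mice. Ccn1, which encodes the secreted matrix protein CYR61, a target of SRF and YAP, had 21.7 in NK318.1-PP against 71.5 in GF-PP (−1.72) by the probe set with the highest signal. In epithelial cells that probe set had 529 in NK318.1-IEC and 630 in GF-IEC (−0.25).

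The 4 probe sets of Ccn1 did not give the same answer in the epithelium. The dimmest had 156 in NK318.1-IEC against 269 in GF-IEC, a log2 ratio of −0.78. Another pair, which share a source transcript in the array's annotation, had 509 and 438 in NK318.1-IEC against 151 and 125 in GF-IEC, with ratios of 1.75 and 1.80. Ccn1 therefore has no settled direction in epithelial cells. Its spread of 2.59 between probe sets was matched or passed by 7 of 6124 genes with at least 2 measured probe sets, Ccn1 included, or 0.114%, where the median spread was 0.40. All 4 pointed the same way in the Peyer's patch, with ratios from −1.72 to −0.60, and 3 of the 4 were past 2-fold. Their size differed there too. The spread of 1.12 was matched or passed by 24 of 5774 genes, Ccn1 included, or 0.416%, where the median spread was 0.22. The colonized values of the 4 there lay between 21.7 and 26.6, so all were near the floor.

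**Figure D2:**
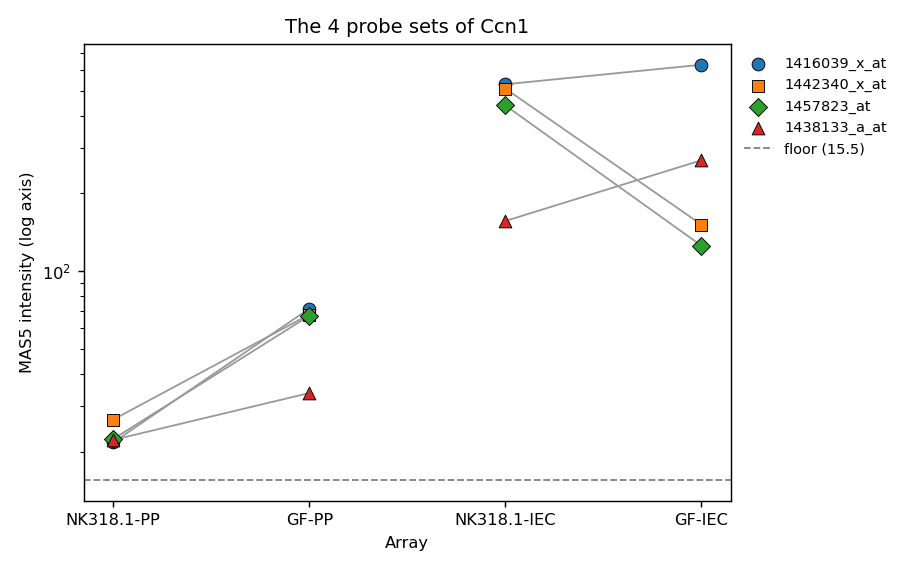
MAS5 intensity (log axis) of each of the 4 Ccn1 probe sets on the 4 arrays, with lines joining the arrays of 1 tissue and a dashed line at the floor of 15.5. The lines run the same way in the Peyer's patch and cross in epithelial cells, where 2 probe sets are higher and 2 lower in NK318.1-IEC.

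Across the members, signal was mostly lower in the colonized array of the epithelium and mixed in the Peyer's patch. In NK318.1-IEC against GF-IEC, 9 of 10 members lay below 0 and 1 above with Ccn1 read from its brightest probe set, and 8 lay below and 2 above with Ccn1 read from either of the pair that gave higher signal in NK318.1-IEC. Their median log2 ratio was −0.50, beside 0.02 for all 13874 genes measured, of which 47.6% lay below 0. Of the members, only Fosb was at least 2-fold lower and 0 were at least 2-fold higher, against 1.54% and 2.63% of all measured genes. Fosb, Egr1 and Atf3 lay below the central 95% of measured genes, which ran from −0.86 to 1.03. In NK318.1-PP against GF-PP, 6 members lay below 0 and 4 above, with a median of −0.15 beside −0.03 for all 12736 genes measured, of which 57.2% lay below 0. Of all these genes, 0.573% were at least 2-fold lower and 0.149% at least 2-fold higher, against 2 and 0 of the members. The central 95% ran from −0.60 to 0.41 in this tissue, with Dusp1 and Ccn1 below it and Fosb above it.

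**Figure D3:**
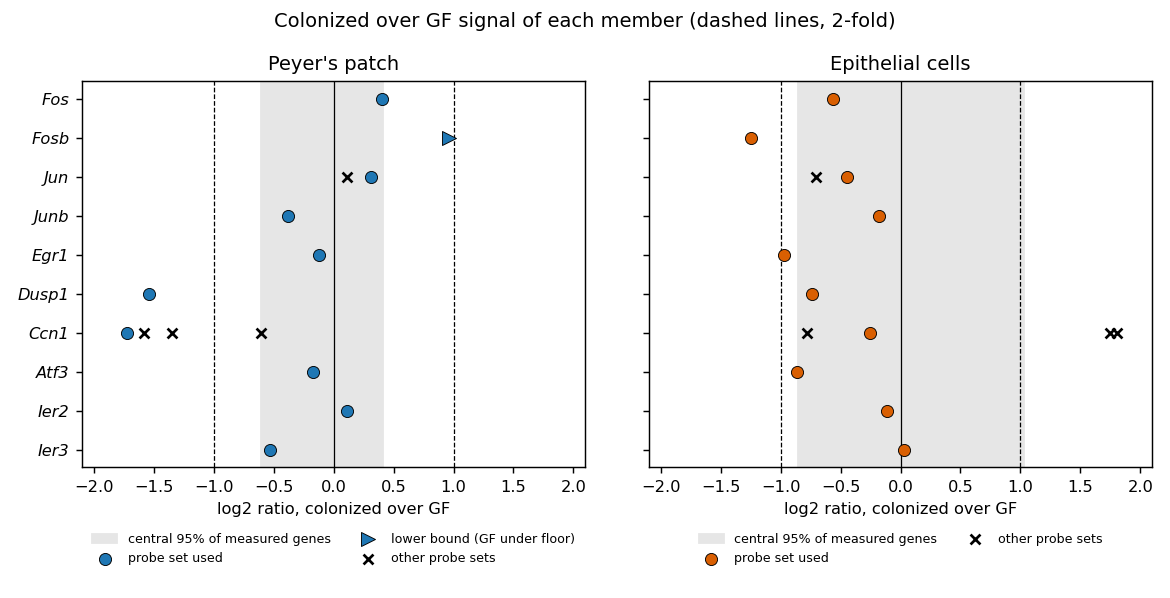
Log2 ratio of colonized over GF signal for each member in the Peyer's patch (left) and in epithelial cells (right), 1 array per group. Circles show the probe set used, the triangle a lower bound, crosses the other probe sets of Jun and Ccn1, the grey band the central 95% of measured genes and dashed lines 2-fold; Dusp1 and Ccn1 stand to the left of 2-fold in the Peyer's patch and Fosb does in epithelial cells.

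Other measures also differed between the epithelial arrays, some lower and some higher in NK318.1-IEC. Enterocyte markers had a median log2 ratio of −0.50 in NK318.1-IEC against GF-IEC, which is as far below 0 as that of the members. Of the enterocyte markers 10 of 11 lay below 0, beside 47.6% of all measured genes. Leukocyte markers had −1.92, with 10 of 15 at least 2-fold lower (lowest Gzmb, −4.62, and Gzma, −4.41, of cytotoxic granules), and 2 of their 15 genes, Cd3g and Ms4a1, were under the floor in NK318.1-IEC and none in GF-IEC. Fibroblast and smooth muscle markers had 1.17 and summed to 1739 in NK318.1-IEC against 608 in GF-IEC. Their part in the members' ratios, and that of the stomach and pancreas markers and of the 3′ to 5′ ratios above, was not tested. In the Peyer's patch the leukocyte and enterocyte medians were 0.05 and −0.11, and Gzma (−1.17) was the 1 leukocyte gene past 2-fold. Fibroblast and smooth muscle markers had −0.24 there with 0 of 11 past 2-fold. Macrophage and neutrophil markers had −0.45 with 10 of 10 below 0, beside 57.2% of all measured genes. The part of these cells in the lower Dusp1 and Ccn1 signals was not tested either.

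Genes that act beside the members were read from lists written from general knowledge. Of the AP-1 family outside the members, 0 of 13 measured genes passed 2-fold in the epithelium and 0 of 12 in the Peyer's patch. Maff, a small MAF protein, had the lowest epithelial ratio (−0.74, 146 in NK318.1-IEC and 243 in GF-IEC), and Batf3, a factor of dendritic cells, the highest (0.89, 35.4 in NK318.1-IEC and 19.1 in GF-IEC). The order was otherwise in the Peyer's patch, where Batf3 was lowest (−0.74, 63.6 in NK318.1-PP and 106 in GF-PP) and Fosl2, which encodes FRA2, highest (0.44, 40.3 in NK318.1-PP and 29.7 in GF-PP). Jund, the constitutive Jun gene, was level, with −0.03 in the epithelium and −0.05 in the Peyer's patch.

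In the wider list of immediate early genes the epithelial median was −0.29, and 3 were at least 2-fold lower and 0 higher. Of the 44, 32 (72.7%) lay below 0, beside 47.6% of all measured genes. Egr3 was at least 3.70-fold lower, with 13.2 in NK318.1-IEC, under the floor, against 57.4 in GF-IEC, although another probe set gave −0.33. Tnfaip3, the NF-κB inhibitor A20, had 111 in NK318.1-IEC against 321 in GF-IEC (−1.53), while its second probe set was under the floor in NK318.1-IEC and barely above it in GF-IEC, at 16.8, and gives no usable ratio. Nr4a1, an orphan nuclear receptor that antigen receptors induce, had 294 in NK318.1-IEC against 678 in GF-IEC (−1.21). Several others lay just inside 2-fold, such as Ier5 (−0.997), Egr2 (−0.98) and Trib1 (−0.96), whereas Nr4a2 had the highest ratio (0.70, with other probe sets from −0.54 to 0.64). Other probe sets gave −0.26 and −0.73 for Ier5 and −0.70 for Egr2, and the second of Trib1 was under the floor on every array. Of the same list in the Peyer's patch, 0 of 44 passed 2-fold, the median was −0.16, and the range ran from Gadd45g (−0.71) to Klf4 and Mcl1 (both 0.14). There too 32 of 44 (72.7%) lay below 0, beside 57.2% of all measured genes.

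The feedback inhibitors of ERK and related kinases had a median of −0.54 in the epithelium, with 10 of 12 below 0, beside 47.6% of all measured genes. Dusp5, a nuclear phosphatase of ERK, was the 1 gene past 2-fold, with 232 in NK318.1-IEC against 519 in GF-IEC (−1.16), and Spry2, which restrains receptor signalling to ERK, had 105 in NK318.1-IEC against 208 in GF-IEC (−0.99). The same list had a median of −0.07 in the Peyer's patch and 0 of 12 past 2-fold, between Dusp2 (−0.60) and Dusp10 (0.37). Upstream kinases and SRF or CREB factors, for which 24 of 34 listed genes were analysed, had 0 genes past 2-fold in either tissue, with medians of −0.13 in epithelial cells and −0.06 in the Peyer's patch. Srf itself had −0.41 in epithelial cells and −0.10 in the Peyer's patch. Its other probe set gave −0.165 and 0.12, so its sign in the Peyer's patch is not settled. Ligands and receptors of the EGF family had an epithelial median of 0.105, with 5 of 8 above 0, near the 52.4% of all measured genes. The 1 gene past 2-fold was Ereg, which encodes epiregulin. It had 18.0 in NK318.1-IEC, near the floor, against 122 in GF-IEC (−2.76). Hbegf, itself an early gene, had 1373 in NK318.1-IEC and 1253 in GF-IEC (0.13) and −1.22 from another probe set. Heat shock genes, often induced beside the early response, had a median above 0 in both tissues, where the members had one below 0. The heat shock median was 0.28 in the Peyer's patch, with 11 of 12 above 0, beside 42.5% of all measured genes. In epithelial cells it was 0.27, with 9 of 12 above 0, beside 52.4% of all measured genes. Hspa1b, Hspa1a and Hsph1 were at least 2-fold higher in the Peyer's patch (1.65, 1.62 and 1.18). In epithelial cells only Hsph1 was (1.43). Hspa1a (−0.39) and Hspa1b (−0.57, the lowest ratio of the list) lay below 0 there, on the side of most members. In the family of Ccn1 itself, the related Ccn2 was under the floor on every array but NK318.1-IEC, at 18.0.

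**Figure D4:**
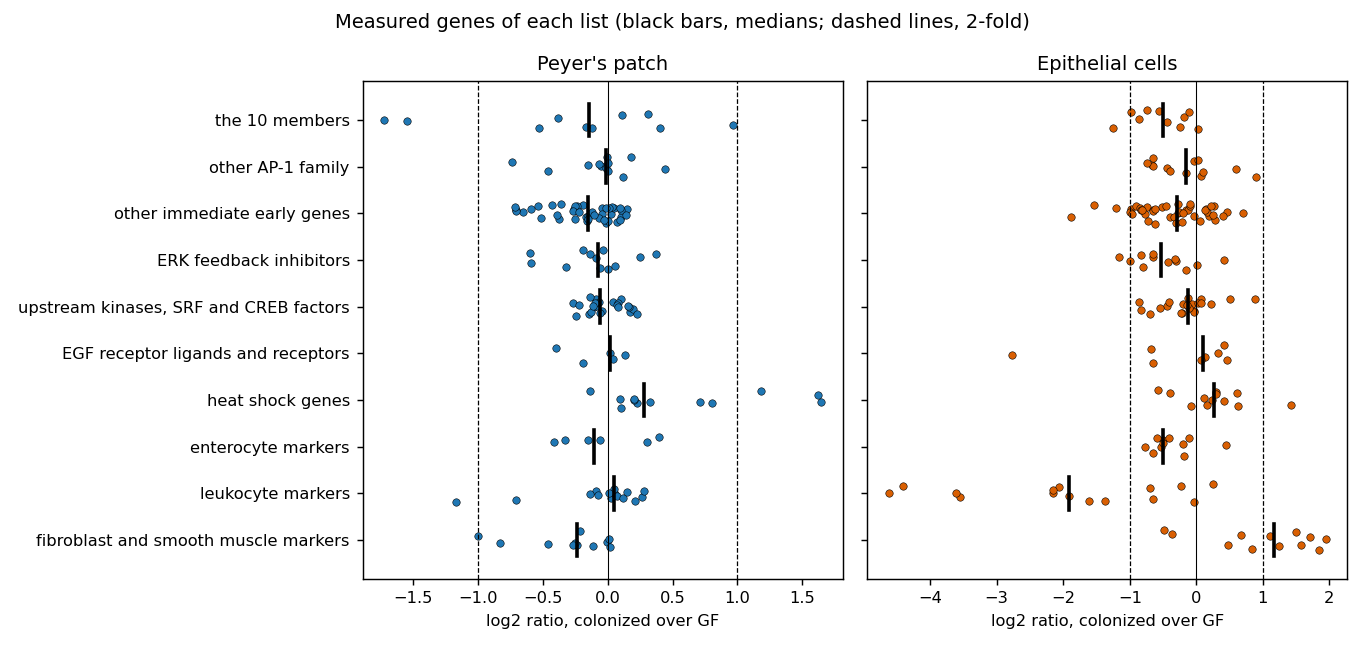
Log2 ratio of colonized over GF signal of each measured gene in the 10 members and in related lists, in the Peyer's patch (left) and epithelial cells (right; the scales differ), 1 point per gene, with black bars at the medians and dashed lines at 2-fold. In epithelial cells the members (−0.50), the ERK feedback inhibitors (−0.54) and the enterocyte markers (−0.50) have similar medians.

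The profile shared by the members was taken as the median over the 10 genes of their log2 values, each centred on its own mean over the 4 arrays. It was 0.93 in NK318.1-IEC and 1.43 in GF-IEC, and −1.13 in NK318.1-PP and −1.10 in GF-PP. Jun followed it most closely, at a Euclidean distance of 0.26, and Atf3 least, at 3.40. The 5 nearest of 14340 other genes, by distance over the 4 arrays, were 2810408A11Rik, Mtmr11, Thbs4, Tfg and Slc5a11, at 0.07 to 0.08, and none is on a list used here. Tfg, which encodes a protein of vesicle export from the endoplasmic reticulum, had 1263 in NK318.1-IEC and 1797 in GF-IEC, and 303 in NK318.1-PP and 323 in GF-PP. The other 4 lay at or near the floor in the Peyer's patch, where their ratios carry little information.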

How the data were processed

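RNA of 4 groups was measured on 1 Affymetrix array each, and the study describes the RNA as pooled. The authors deposited 1 MAS5 intensity for each probe set, on a linear scale. The version and scaling target of MAS5 are not stated in the sources used here. The study also names R and limma, whose adjusted p-value needs replicates. No further scaling was applied. After 64 controls were set aside, 34945 of 45037 probe sets had 1 gene in the annotation and 932 had several and were left out. Of several probe sets for a gene, the one brightest on average (log2, over the 4 arrays) was read. The floor of 15.5 is the 40th percentile of an array, as a median over the 4, and lower values were set to it. A gene was measured in a comparison if either array exceeded it. The limit of 2-fold follows the study's methods. The number of arrays limits the precision.

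The members and lists were chosen with earlier results of these data known. Outside the members and the cell type markers, genes of a list could be named if past 2-fold, highest or lowest in it. The 5 nearest in profile were named too. Only a few cell type markers are named, with Fabp1 and Ptprc as examples. Jund, Srf, Spry2, Hbegf, Ier5, Egr2, Trib1, Ccn2, Cd3g and Ms4a1 were added after their values were seen. Lists were described by counts and medians, with no test. Alternatives were 2 scalings, other floors, other choices of probe set and other fold limits. The procedure was checked on simulated data with changes larger than the limit and little noise. That check does not show how reliable a ratio between single arrays is. Python 3.11.15, numpy 2.4.6, pandas 2.3.3 and matplotlib 3.10.9 were used.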

Additional observations from a re-analysis of the deposited data

Results flagged for a closer look

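For 5 members the colonized over GF ratio had one sign in epithelial cells and the other in the Peyer's patch. Of all measured genes, 42.5% lay above 0 and 57.2% below it in the Peyer's patch. In epithelial cells 52.4% lay above 0 and 47.6% below it. Opposite signs between tissues were not counted over all genes, so 5 members with opposite signs are not shown to be unusual. The epithelial log2 ratio minus that of the Peyer's patch was −2.21 for Fosb, −0.97 for Fos, −0.76 for Jun, −0.22 for Ier2 and 0.56 for Ier3. These differences were not tested, since each ratio comes from 2 arrays. For Fosb the Peyer's patch ratio is a lower bound, and the ratios of Ier2 (0.11 and −0.11) and the epithelial ratio of Ier3 (0.03) lie close to 0.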

How the results depend on the processing

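No paired analysis was possible because only 1 array was made per group. The members' medians stayed on the same side of 0 under every alternative, and no ratio past 2-fold changed sign. The count of members at least 2-fold lower in epithelial cells was 2 after quantile normalization, which added Egr1 at −1.13, 4 at a limit of 1.5-fold and 0 at 4-fold. For the Peyer's patch, the lower count was 1 with the floor at the 60th percentile, where Ccn1 had −0.94, and 0 at 4-fold, and the higher count was 1 with the floor at the 25th percentile, with no floor or at 1.5-fold. Members at least 4-fold higher in NK318.1-IEC than in NK318.1-PP numbered 3. In GF-IEC against GF-PP the count at 2-fold was 9 after quantile normalization, which added Junb and Ier3, and 6 with specific probe sets only, which lost Ccn1. Ccn1 had 0.63 in epithelial cells when its probe sets were averaged and 1.80 with specific probe sets only, and the higher count with specific probe sets only was 1. Chosen after seeing the data, each other Ccn1 probe set was used in turn, which gave 1 higher in epithelial cells with either of the pair that shares a source transcript, and 1 lower in the Peyer's patch with the dimmest. The cause was not tested, apart from the floor and the limits, which act by construction. Ier3 in epithelial cells ran from −0.02 to 0.03. Fosb in GF-PP, and Atf3 and Ccn1 in the Peyer's patch, are limited by signal near the floor.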
